A study of Mus musculus with 6 samples.

Results

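The genes described here are the nuclear genes whose symbols mark them as parts of the last 3 protein machines of the mitochondrial respiratory system: complex III (symbols beginning Uqcr), complex IV (Cox4 to Cox8) and ATP synthase (Atp5). They were chosen by symbol alone, leaving out names that hold "-ps", the ending of many pseudogenes. This gave 44 of the 38926 genes counted: 8 for complex III, 18 for complex IV and 18 for ATP synthase. Enough reads for a test were counted for 37 of them, made up of 8, 12 and 17. The symbol rule left out 1 row, Atp5l-ps1, which held between 1 and 3 counts in each sample.

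RNA was sequenced from hematopoietic stem cells (HSCs) sorted from mouse fetal liver at day E14.5. The 3 control samples had the genotype Vav-Cre; Dpy30F/+ and the 3 knockout samples Vav-Cre; Dpy30F/-, and each of 3 litters gave 1 of each. Both genotypes carried the Vav-Cre transgene, which is active in blood-forming cells, and a floxed allele of Dpy30, which encodes a shared subunit of the SET1/MLL complexes that methylate histone H3 at lysine 4. A control cell in which Cre acted kept 1 working allele, so by design the comparison is between cells with a single copy and cells with none. Dpy30 reads remained in the knockouts, as given below, and how complete the deletion was in each sample was not tested. No group without Cre was analysed here. The labels do not say how many embryos went into each sample.

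Complex III takes electrons from ubiquinol and hands them to cytochrome c, and complex IV passes them from cytochrome c to oxygen. Both pump protons across the inner mitochondrial membrane, and ATP synthase lets the protons return through a rotating ring of subunit c while its catalytic head makes ATP. Each machine is built from nuclear genes together with a few genes of the mitochondrial genome. Fetal HSCs divide more than adult ones, and it is adult HSCs that are known for relying less on respiration than their progeny.

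Gene counts totalled between 31897737 and 43394700 per sample. Mitochondrially encoded genes took 54.4% to 67.7% of gene counts in controls and 49.2% to 55.7% in knockouts (two-sided exact permutation p = 0.2, where 3 against 3 cannot go below 0.1). Most of this share was mitochondrial rRNA, not mRNA of respiratory subunits. The rRNAs took 49.7% to 61.7% of gene counts in controls and 45.2% to 50.5% in knockouts. Dpy30 itself had 712, 904 and 1395 counts in controls and 315, 216 and 478 in knockouts, and its mean of 9.18 CPM in knockouts was 34.2% of the control mean. CPM is a count scaled to a library total of 1000000, with library sizes adjusted between samples. The summed level of 11 HSC and progenitor markers was 677, 642 and 680 CPM in controls and 815, 961 and 279 CPM in knockouts, so that knockout 3 stood below all others. The summed level of 8 macrophage markers was 275, 442 and 274 CPM in controls and 568, 229 and 955 CPM in knockouts. Mrc1 alone gave 180, 359 and 196 CPM of this in controls and 309, 26.4 and 366 CPM in knockouts. The sum of knockout 2 was thus low together with its Mrc1. Of the 8, 7 had a positive log2 fold change, Mrc1 (-0.07) being the exception. Higher in every knockout were 3 of 8 (against 6.39% of all genes). DESeq2 called 2 of these 8, Csf1r (2.13, DESeq2 adjusted p = 0.00759) and C1qb (2.33, DESeq2 adjusted p = 0.00214), where it called 1.01% of all genes, and both had an adjusted p of 0.622 in edgeR and 0.660 in limma-voom. Granulocyte markers summed to 43.1, 59.5 and 124 CPM against 69.1, 148 and 386 CPM, with 6 of 6 tested positive and Ly6g at 0 throughout. Erythroid markers summed to 714, 1746 and 1644 CPM against 767, 935 and 2448 CPM. Megakaryocyte markers summed to 14.8 to 31.9 CPM in controls and 36.4 to 44.7 CPM in knockouts. Endothelial markers (Cdh5, Kdr, Lyve1, Stab2) summed to 1013 to 1639 CPM in 5 of the libraries and to 97.2 CPM in knockout 2. Hepatocyte markers reached at most 19.8 CPM and lymphoid markers at most 1.86 CPM, with Cd3e at 0. The part of these cell types in any difference given below was not tested. In such bulk samples, fewer cells of a type and less RNA per cell cannot be told apart.

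No gene of the 3 complexes passed the test between knockouts and controls. With edgeR's quasi-likelihood test, 0 of the 37 tested genes had an adjusted p under 0.05, where 0 of all 13646 genes tested did (0%). The smallest edgeR adjusted p among the 37 was 0.733, that of Atp5c1, which was also the only 1 with an unadjusted p under 0.05 (2.70%, against 6.51% of all genes). DESeq2 called none of them, where it called 1.01% of all genes, and limma-voom called none, where it called 0%. At an unadjusted p under 0.05, DESeq2 held 2 of them, Cox6b2 and Atp5c1 (5.41%, against 9.23% of all genes). The edgeR 95% interval of the log2 fold change reached a median of 1.01 to each side, with a narrowest of 0.47 and a widest of 3.88. For a typical gene the interval thus covered about a 2-fold difference to each side.

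The signs were mixed. Of the 37 genes, 22 had a log2 fold change above 0 and 15 below 0 (59.5% above, against 50.8% of all genes), with a median of 0.18 beside 0.01 for all genes and a range from -1.13 to 1.59. Without knockout 2 the split was 19 above and 18 below, and it was the same without knockout 3. With library size as the only scaling, 24 of the 37 and 63.1% of all genes were above 0. A difference of 2-fold or more was found for 5 of 37 (13.5%), against 26.4% of all genes, which were not matched to them for level. The 5 were Cox6b2, Atp5s and Atp5sl with higher means, and Cox7c and Atp5g2 with lower ones. The standard deviation of log2 CPM was larger among knockouts than among controls for 29 of 37 genes (78.4%), close to the 75.2% of all genes.

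A smaller group had no overlap between genotypes. Every knockout value lay above every control value for 4 genes (10.8%, against 6.39% of all genes), namely Cox6a1, Cox6b2, Atp5f1 and Atp5j2. Every knockout value lay below every control value for 3 genes (8.11%, against 7.74%), namely Uqcr11, Atp5c1 and Atp5g3. In either direction that made 7 of 37 (18.9%), against 14.1% of all genes. Without knockout 2, 15 of 37 genes had no overlap (40.5%, against 28.9% of all genes), and without knockout 3 the count was 7 (18.9%, against 25.0%). Within litters, 9 genes (24.3%, against 12.3% of all genes) were higher in the knockout all 3 times and 4 (10.8%, against 15.9%) were lower all 3 times. The 9 were the 4 non-overlapping ones with Uqcrfs1, Cox7a2l, Cox7b, Atp5o and Atp5s, and the 4 were Uqcr11, Uqcrh, Atp5c1 and Atp5g3.

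**Figure D1:**
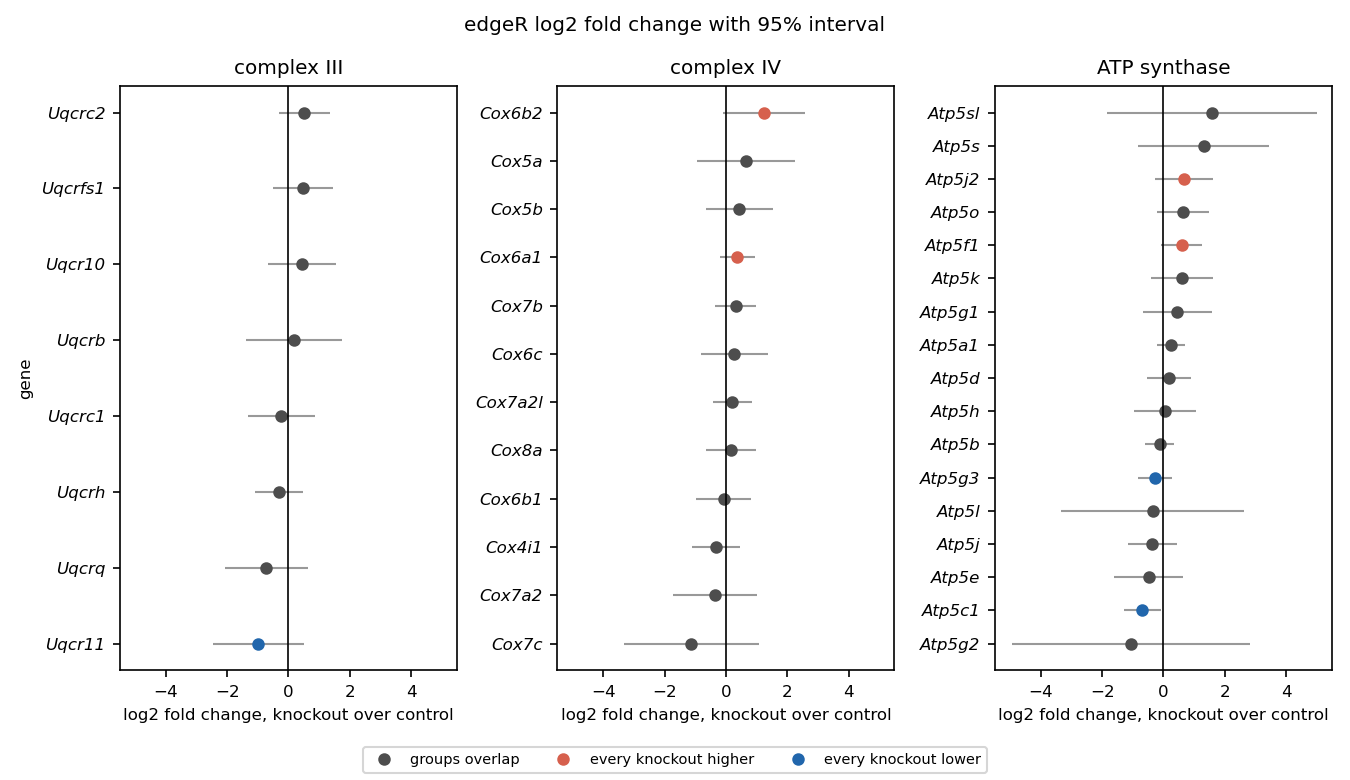
The horizontal axis is the edgeR log2 fold change (knockout over control) of each tested gene, with its 95% interval as a line, in 1 panel per complex. Genes with every knockout above every control are red and those with every knockout below are blue; the interval of Atp5c1 (-1.29 to -0.09) lies wholly below 0 and intervals of all the others reach across it.

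Complex III as a whole sat at the control level in 1 knockout, below it in another and above it in the third. Its 8 genes had 4 log2 fold changes above 0 and 4 below, with a median of -0.03, or -0.25 without knockout 3. Their summed level was 241, 192 and 215 CPM in controls and 223, 151 and 326 CPM in knockouts, or 216 ± 24.2 against 233 ± 88.2 (SD, n = 3). The groups overlapped, and knockouts 2 and 3 lay on opposite sides of all controls. Litter by litter, the median log2 difference of its genes was -0.35, -0.39 and 0.29.

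The core proteins of complex III, Uqcrc1 and Uqcrc2, support the electron-carrying subunits. Uqcrc2, the complex III gene with most counts, had 57.4, 50.4 and 47.7 CPM in controls and 87.8, 38.3 and 96.2 CPM in knockouts. Knockouts 1 and 3 were high and knockout 2 was the lowest of all, for a log2 fold change of 0.52 (edgeR adjusted p = 0.863, SE 0.362). Uqcrfs1, the Rieske iron-sulfur protein that moves electrons towards cytochrome c, had 21.4, 23.5 and 31.3 CPM in controls against 25.8, 24.3 and 56.8 CPM in knockouts. Its log2 fold change of 0.49 was carried by knockout 3 and came to -0.01 without it. Uqcrc1 differed by -0.23 (95% interval -1.33 to 0.86).

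The small subunits went both ways. Uqcr11, a small accessory protein, had 8.53, 7.84 and 10.6 CPM in controls and 6.19, 3.5 and 3.97 CPM in knockouts. All 3 knockouts were below all 3 controls, with a log2 fold change of -0.98 (SE 0.646, 95% interval -2.47 to 0.51, edgeR adjusted p = 0.851). The gene lies on the minus strand of chromosome 10 from 80402997 to 80406830 (GRCm38), and its mean level was 20.2 CPM per kb of transcript in controls and 10.2 CPM per kb in knockouts. Uqcrq, a ubiquinone-binding subunit, had 21.9, 15.2 and 11.4 CPM in controls and 4.18, 11.6 and 13.6 CPM in knockouts, overlapping because control 3 was low (log2 fold change -0.72, SE 0.589). Uqcrh, the hinge protein beside cytochrome c1, had 45.2, 31.1 and 34.8 CPM against 38.3, 22 and 29.4 CPM, lower in each litter's knockout but overlapping between groups. Uqcr10, another accessory subunit, had 27.8, 25.8 and 19.9 CPM against 18.8, 23.0 and 57.9 CPM. Its log2 fold change was 0.44 with knockout 3 and -0.22 without it. Uqcrb, at 4.23 to 10.3 CPM over all samples, differed by 0.18 (SE 0.683).

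**Figure D2:**
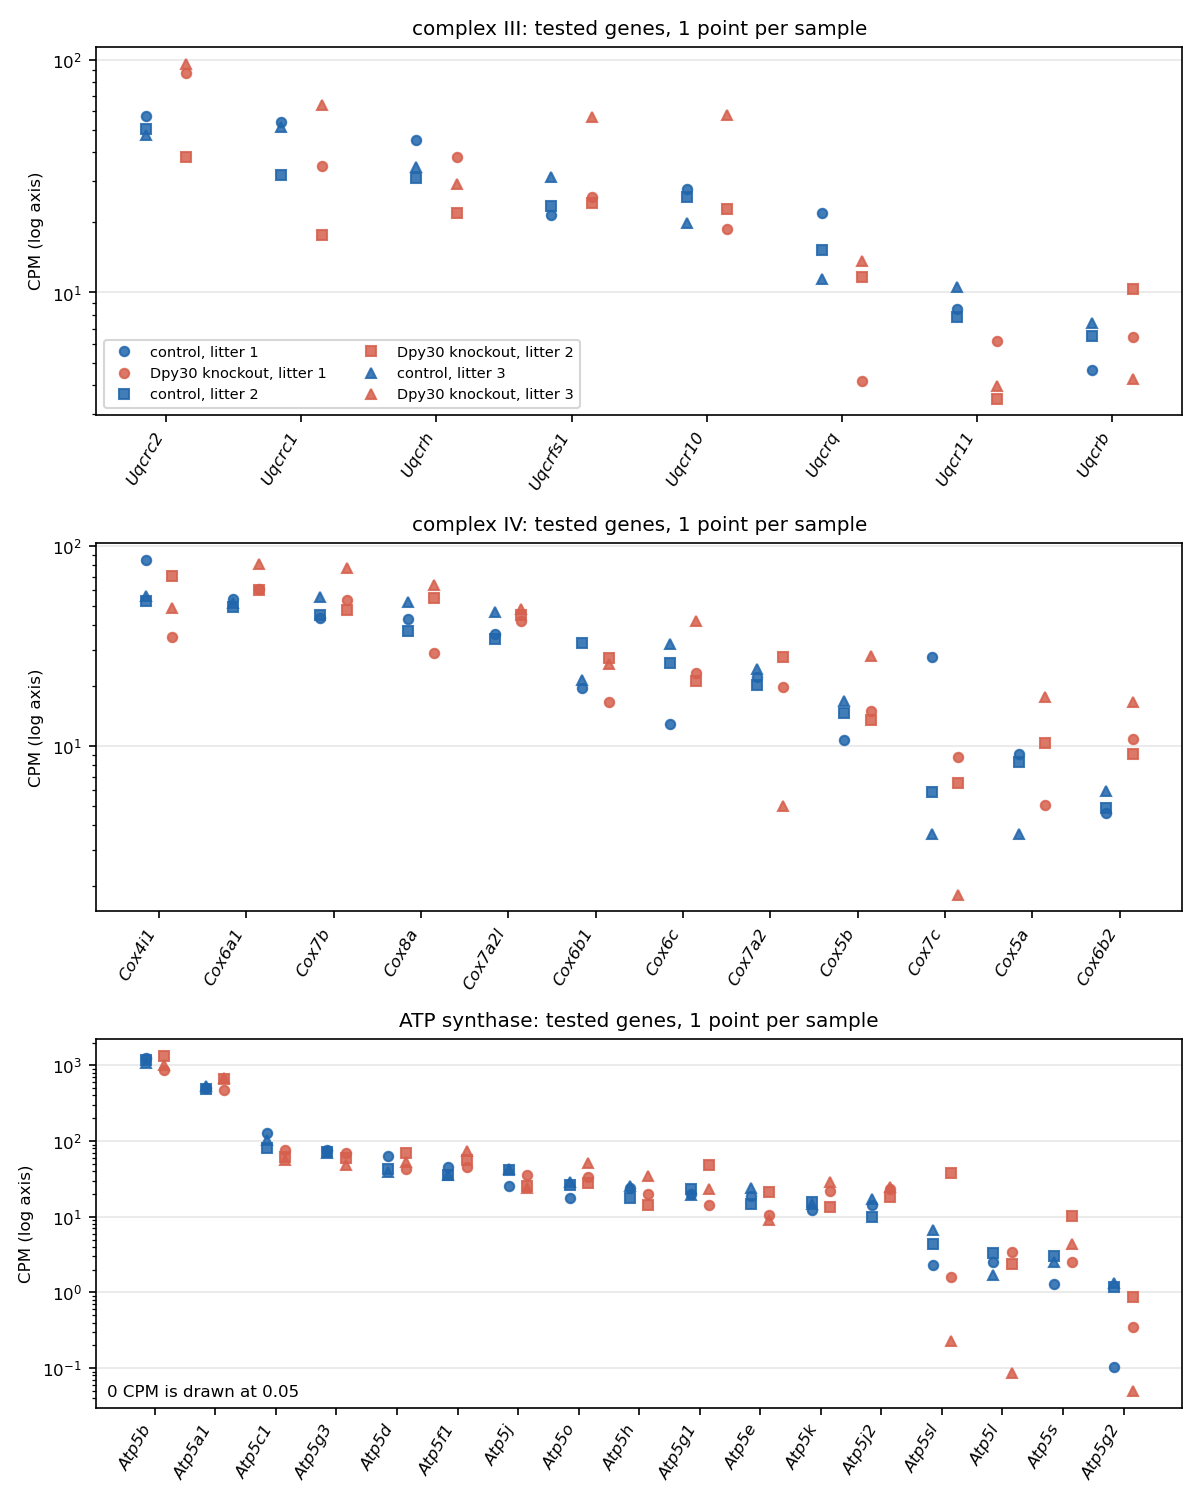
Each point is the level of a gene in 1 sample in CPM on a log axis, for the 37 tested genes in 1 panel per complex, with controls blue, knockouts red and the litters told apart by shape. Knockouts are more widely spread than controls for 29 of 37 genes, and knockout 3 is far below the rest for Cox7a2, Atp5l and Atp5sl.

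Complex IV was higher in sum in knockouts 2 and 3 and lower in knockout 1. Of its 12 tested genes, 8 had a log2 fold change above 0 and 4 below, with a median of 0.24, or 0.063 for the same 12 without knockout 3. The summed level was 369, 331 and 370 CPM in controls and 320, 395 and 457 CPM in knockouts, or 357 ± 22.2 against 391 ± 68.8 (SD, n = 3). Without knockout 3 the counts were 7 above and 5 below. The median difference within litters was 0.00 in size for litter 1, 0.29 for litter 2 and 0.34 for litter 3. After subtracting the median of all genes, the median of complex IV was 0.23 with the main scaling and 0.17 with library size only, whose all-gene median stood at 0.23.

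Cox6b2 had the largest positive log2 fold change in complex IV. It is the form of subunit 6b best known from testis, and it lies on the minus strand of chromosome 7 from 4751792 to 4753094 (GRCm38). It had 134, 182 and 262 counts in controls and 428, 330 and 580 counts in knockouts, which is 4.63, 4.87 and 5.94 CPM against 10.8, 9.09 and 16.6 CPM. Every knockout was above every control, with a log2 fold change of 1.24 (SE 0.581, 95% interval -0.10 to 2.58, edgeR adjusted p = 0.775). Cox6b1, the common form, had 19.5, 32.5 and 21.3 CPM in controls and 16.7, 27.4 and 25.5 CPM in knockouts (log2 fold change -0.08, SE 0.394). Its groups overlapped throughout. Cox6b2 thus made up 19.2%, 13.0% and 21.8% of the counts of the pair in controls and 39.3%, 24.9% and 39.3% in knockouts, without overlap. This share uses the same Cox6b2 counts and is not a separate observation. No 50-base stretch of the Cox6b2 transcript is found in another annotated gene.

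The other tissue-restricted forms were absent or close to it. Cox4i2, the form of subunit 4 known from lung, had 0, 0 and 6 counts in controls and 31, 33 and 0 counts in knockouts, so that only knockouts 1 and 2 held more than a handful. At its highest it made up 2.19% of the Cox4i1 and Cox4i2 counts. Cox7a1, a heart and muscle form, had 11, 0 and 1 counts in controls and 0 in each knockout, and Cox8b, also of heart and muscle, had 3 counts in control 3 and 0 elsewhere. Cox6a2, Cox7b2 and Cox8c were at 0 in all 6 samples, a count that allows up to 3 per library, for counting error only. The filter on low counts left all 6 out of the main test.

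Their common counterparts were present in every sample. Cox4i1, a regulatory subunit of complex IV, had 85.1, 52.9 and 56.3 CPM in controls and 34.8, 70.9 and 49.0 CPM in knockouts, overlapping with a log2 fold change of -0.33 (SE 0.344). Cox6a1, the member of complex IV with most counts, had 54.0, 49.5 and 51.8 CPM in controls and 60.6, 59.9 and 81.1 CPM in knockouts. Every knockout was higher, with a log2 fold change of 0.38 (SE 0.248, 95% interval -0.19 to 0.95, edgeR adjusted p = 0.851). Cox6a1 lies on the minus strand of chromosome 5 from 115345642 to 115348981 (GRCm38). Cox7a2 had 22.1, 20.2 and 24.3 CPM in controls and 19.6, 27.8 and 5.0 CPM in knockouts, where the low value of knockout 3 set the sign (log2 fold change -0.35, and 0.11 without knockout 3). Cox7b had 43.6, 45 and 55.2 CPM against 53.4, 48.0 and 77.7 CPM (log2 fold change 0.32, SE 0.287). Its groups overlapped through control 3. Cox8a had 43.3, 37.3 and 52.3 CPM against 29.2, 54.8 and 64.1 CPM, with knockouts on both sides of the controls (0.16, SE 0.351).

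Cox5a and Cox5b are small matrix-facing subunits of complex IV. Cox5a had 9.12, 8.26 and 3.63 CPM in controls and 5.08, 10.3 and 17.5 CPM in knockouts (log2 fold change 0.65, SE 0.696). Cox5b had 10.7, 14.55 and 16.7 CPM against 14.9, 13.4 and 28.3 CPM (log2 fold change 0.43, SE 0.475). Both were highest in knockout 3 and overlapped otherwise. Cox7c had the lowest log2 fold change of all 37 genes, -1.13 (SE 0.952), from 27.9, 5.88 and 3.61 CPM in controls and 8.81, 6.53 and 1.8 CPM in knockouts. Control 1 alone was high, and without it the log2 fold change was 0.27. The tested rest were Cox6c (0.28) and Cox7a2l (0.21), an assembly factor of respiratory supercomplexes that was slightly higher in each litter's knockout.

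ATP synthase had the widest range of levels. Its 17 tested genes had 10 log2 fold changes above 0 and 7 below, with a median of 0.18, and the median was -0.16 without knockout 2. With litter as a block in edgeR the median was -0.041, in DESeq2 with that block -0.023, and in limma-voom -0.052, so its sign depended on the fit. The summed level was 2202, 2056 and 2045 CPM in controls and 1742, 2453 and 2121 CPM in knockouts, or 2101 ± 87.6 against 2105 ± 356 (SD, n = 3). The means were almost equal while knockout 1 lay below and knockout 2 above every control. The median difference within litters was -0.11, 0.18 and 0.25.

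Atp5a1 and Atp5b, the alpha and beta subunits that form the catalytic head, held 77.0% to 81.0% of all ATP synthase counts. Atp5b had 1242, 1173 and 1079 CPM in controls and 869, 1326 and 1003 CPM in knockouts (log2 fold change -0.13, SE 0.206, 95% interval -0.60 to 0.35). Atp5a1 had 509, 491 and 534 CPM against 472, 659 and 686 CPM (log2 fold change 0.24, SE 0.203, 95% interval -0.22 to 0.71). Knockouts lay on both sides of the controls for each gene. The ratio of Atp5a1 to Atp5b counts, however, was 0.410, 0.419 and 0.495 in controls and 0.544, 0.497 and 0.684 in knockouts, without overlap. That ratio was chosen after its values were seen, and no test was made of it. Per length of transcript, Atp5b stood at 608 CPM per kb and Atp5a1 at 207 CPM per kb in controls, followed by Atp5g3 at 99.8, Cox6a1 at 90.7 and Atp5c1 at 89.3 CPM per kb. Transcript length was taken from the principal transcript of the annotation, and for Atp5g1 that transcript is 4715 bases long, which lowers its per-length value.

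**Figure D3:**
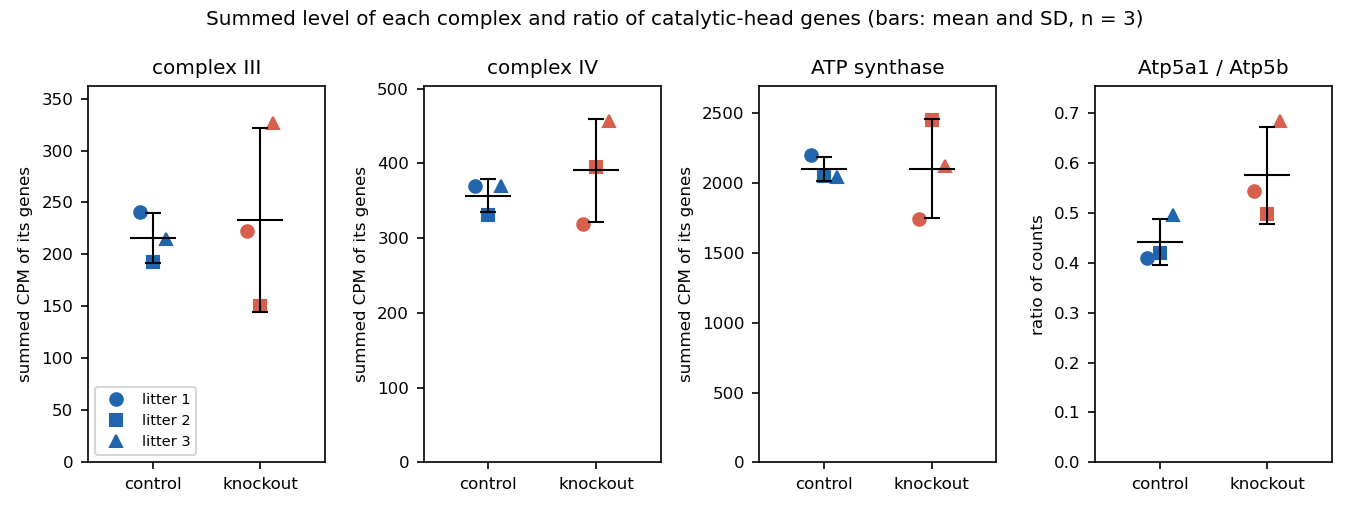
The first 3 panels give the summed level of each complex in CPM and the last the ratio of Atp5a1 to Atp5b counts, with 1 point per sample shaped by litter and bars for mean and SD (n = 3). The sums overlap between the groups, 216 against 233, 357 against 391 and 2101 against 2105 CPM, while the lowest knockout ratio (0.497) lies just above the highest control ratio (0.495).

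Genes of the stalks differed in opposite directions, and none passed the test. Atp5c1, the gamma subunit of the central rotor, had 127, 81.2 and 104 CPM in controls and 76.5, 60.7 and 56.5 CPM in knockouts. Every knockout was below every control, with a log2 fold change of -0.69 (SE 0.260, 95% interval -1.29 to -0.09, edgeR adjusted p = 0.733, unadjusted p = 0.0291). It lies on the minus strand of chromosome 2 from 10056016 to 10080510 (GRCm38), and 6.0% of its 50-base stretches occur in other genes. Atp5f1, subunit b of the outer stalk, had 44.8, 36.1 and 35.3 CPM in controls and 45.1, 56.2 and 74.7 CPM in knockouts. Every knockout was above every control, by the narrowest margin in knockout 1, with a log2 fold change of 0.60 (SE 0.293, 95% interval -0.08 to 1.27, edgeR adjusted p = 0.790). Atp5f1 lies on chromosome 3 from 105942698 to 105960099 (GRCm38, minus strand). Of its 50-base stretches 38.7% occur in other genes, among them Gm12231, so its counts are uncertain. Atp5e, the epsilon subunit of the central stalk, had 19.1, 14.9 and 23.9 CPM against 10.7, 21.5 and 9.17 CPM, overlapping through knockout 2 (log2 fold change -0.48, SE 0.492). Atp5o, which joins the head to the outer stalk, differed by 0.64 (SE 0.374) and was higher in each litter's knockout.

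Membrane subunits included 2 more genes without overlap. Atp5j2, subunit f, had 14.2, 10.1 and 16.9 CPM in controls and 23.1, 18.1 and 24.5 CPM in knockouts, every knockout being higher (log2 fold change 0.67, SE 0.412, 95% interval -0.28 to 1.62, edgeR adjusted p = 0.834). It lies on chromosome 5 from 145183698 to 145192062 (GRCm38, minus strand). Subunit c, the rotating ring, is encoded by 3 genes whose mature protein is the same. Atp5g3, with most counts of the 3, had 75.5, 70.6 and 70.5 CPM in controls and 69.4, 60.5 and 48.6 CPM in knockouts (chromosome 2, 73908447 to 73911326, GRCm38, minus strand). Every knockout was lower, at a log2 fold change of -0.28 (SE 0.242, 95% interval -0.83 to 0.28, edgeR adjusted p = 0.888). Atp5g1 had 19.9, 23.2 and 19.5 CPM against 14.1, 48.5 and 23.2 CPM, high in knockout 2 alone (log2 fold change 0.45, and -0.16 without knockout 2). Its share of subunit c counts was 20.9%, 24.5% and 21.3% in controls and 16.9%, 44.1% and 32.3% in knockouts. Atp5g2 had 0.10, 1.18 and 1.32 CPM against 0.35, 0.88 and 0 CPM, too few to compare (log2 fold change -1.07, SE 1.69). Of its transcript windows 87.4% also occur in Gm10175, and reads that aligned to more than 1 place were not given to genes. The shares of subunit c thus cover counted reads only.

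The largest positive values of the Atp5 group belong to 2 genes that are not structural subunits. They are Atp5s and Atp5sl, which newer nomenclature calls Dmac2l and Dmac2. Atp5s had 1.28, 3.02 and 2.52 CPM in controls and 2.52, 10.1 and 4.34 CPM in knockouts (log2 fold change 1.32, SE 0.925). Atp5sl had 2.31, 4.33 and 6.58 CPM against 1.61, 38.1 and 0.23 CPM. Knockout 2 alone was high for Atp5sl, at 1382 counts, and its log2 fold change of 1.59 (SE 1.49) became -2.26 without that sample. Of the rest, Atp5d, Atp5h, Atp5j, Atp5k and Atp5l had log2 fold changes of 0.18, 0.04, -0.37, 0.59 and -0.35. Atp5l had 3 counts in knockout 3 and 72 to 135 in the other libraries, and 84.8% of its stretches are shared with other genes. Atp5l2 held 1 to 8 counts per sample and was not tested, and the annotation lists it as a pseudogene.

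**Figure D4:**
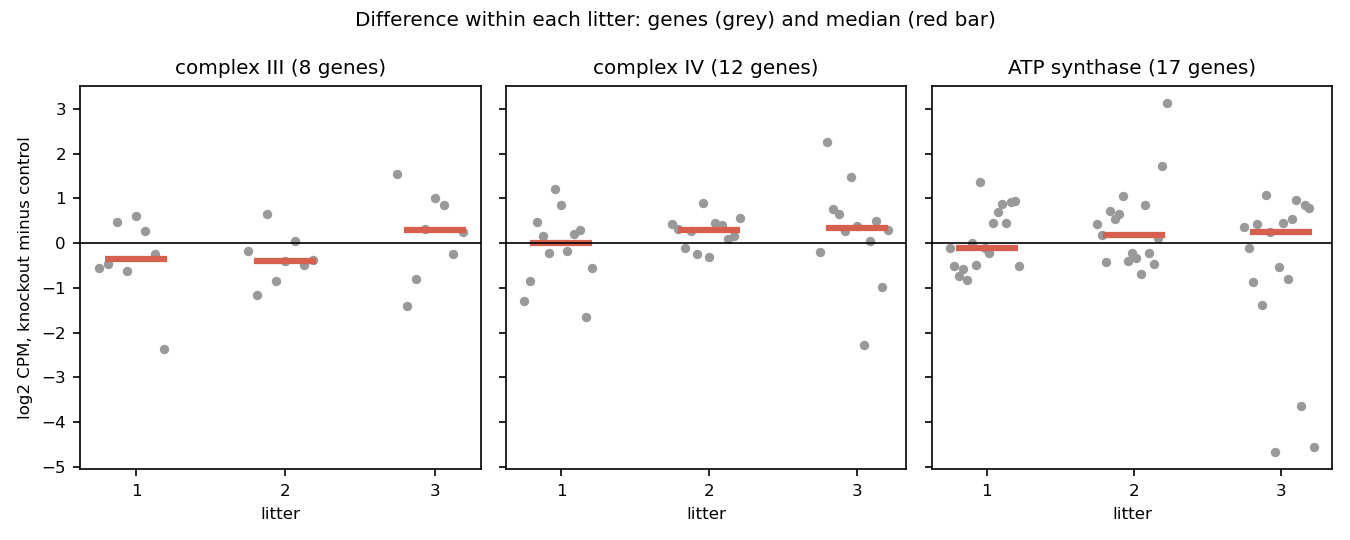
Grey points are the difference in log2 CPM between knockout and control of the same litter for each tested gene, and red bars are the median of the complex in that litter. Complex III is at -0.35, -0.39 and 0.29, complex IV at 0.00 in size, 0.29 and 0.34, and ATP synthase at -0.11, 0.18 and 0.25.

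Counting whole genes depends on how unique their sequence is. Many of these genes have processed copies elsewhere, and reads that fit several places were not counted. With the principal transcript cut into all its 50-base windows, Atp5g2, Atp5l, Atp5l2 and Cox7c shared over 50% of them with annotated genes of another name (87.4%, 84.8%, 73.4% and 53.0%). Atp5h shared 47.9%, Uqcrb 43.4%, Atp5o 34.0% and Cox5a 32.0%. Uqcrc2 shared 24.8%, all with Pdzd9, which overlaps it on the other strand. Among the 20 tested genes that shared under 10%, 11 had a log2 fold change above 0 and 9 below, with a median of 0.17. Taken by complex, these had medians of -0.23 for complex III (5 genes), 0.16 for complex IV (5 genes) and 0.21 for ATP synthase (10 genes). Of the 20 genes, 4 had no overlap, where 14.1% of all genes had none. They were Cox6b2 and Atp5j2, which were higher, and Atp5c1 and Atp5g3, which were lower.

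**Figure D5:**
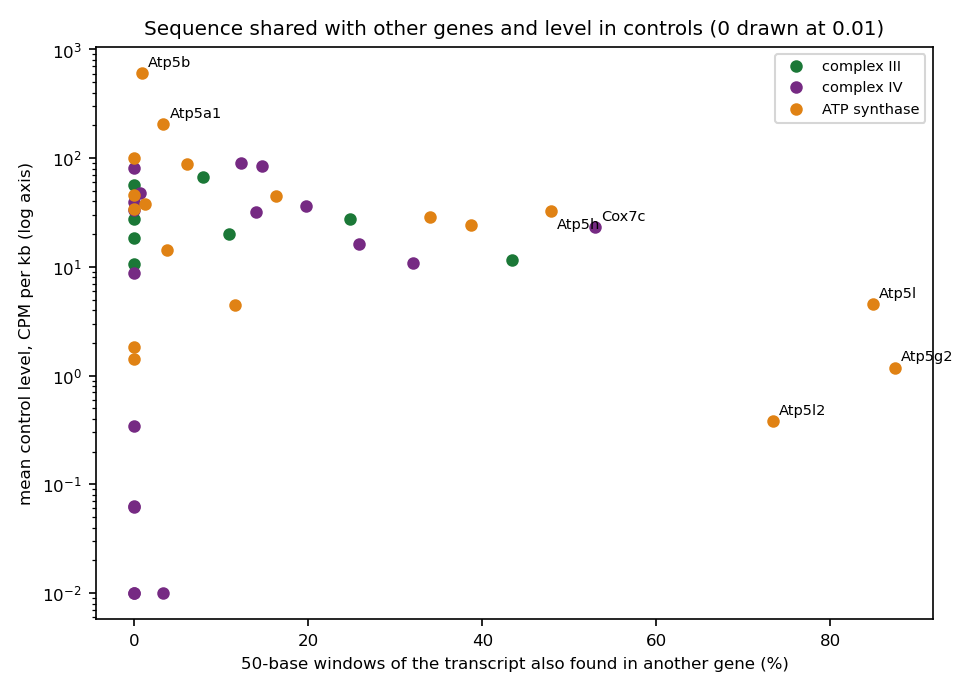
The horizontal axis is the percent of 50-base windows of each transcript that also occur in another gene, and the vertical axis (log) is the mean control level in CPM per kb, with 1 point per gene coloured by complex. The high-level genes Atp5b (608 CPM per kb) and Atp5a1 (207 CPM per kb) share under 10% of their windows, while Atp5l, Atp5g2 and Atp5l2 share the most and stand low.

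The mitochondrial genome adds 1 subunit to complex III, 3 to complex IV and 2 to ATP synthase, and several of those are as hard to count. The mitochondrial cytochrome b gene mt-Cytb had 227665 to 449103 counts and mt-Co1, the catalytic subunit of complex IV, had 462898 to 808445. By contrast mt-Co2, mt-Co3, mt-Atp6 and mt-Atp8 held at most 17 counts in any sample. Other annotated genes share 100% of the windows of mt-Co2, 99.9% of mt-Co3, 99.5% of mt-Atp6 and 51.1% of mt-Co1, but 0% of mt-Cytb and mt-Atp8. The same 60 bases of each are shown for mt-Atp6 and its nuclear copy Gm10925 because they cannot be told apart. They lie at chrM:8027-8086 on the plus strand and chr1:24614492-24614551 on the minus strand of GRCm38, and 678 of 678 aligned bases of the whole pair are identical.
mt-Atp6: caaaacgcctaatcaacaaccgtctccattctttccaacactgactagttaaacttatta
Gm10925: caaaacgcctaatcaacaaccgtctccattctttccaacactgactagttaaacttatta
Of the 6, mt-Atp6 passed the filter with a log2 fold change of -1.21 from at most 17 counts, and only mt-Cytb and mt-Co1 had high counts. Their log2 fold changes were -0.47 (SE 0.307, edgeR adjusted p = 0.849) and -0.33 (SE 0.310, edgeR adjusted p = 0.901). Counts of mt-Co1 were 75.6, 44.7 and 37.2 times the summed nuclear counts of complex IV in controls and 36.4, 48.2 and 30.9 times in knockouts. Counts of mt-Cytb were 64.4, 44.9 and 37.6 times those of nuclear complex III in controls and 25.7, 66.3 and 23.2 times in knockouts. Control 1 was the highest control in both, and the groups overlapped.

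Promoter windows were searched for motifs of factors that regulate mitochondrial genes. RefSeq (GRCm38.p6) windows from 250 bases before to 50 after the start were found for 34 of the 44 genes, 38 windows in all. NRF1 is a regulator of nuclear genes for respiration, and its motif (GCGCA, any base, then GCGC, on either strand) was in 8 of 38 windows (21.1%) against 4.6% of 32851 windows of all genes. By complex this was 1 of 5, 1 of 13 and 6 of 20. The ETS motif CCGGAAGT, read by the GABP factor, was in 10.5% against 3.89%. The SP motif GGGGCGGGG was in 15.8% against 11.4%. The YY1 motif ATGGCGGC was in 5.26% against 2.24%, but both windows belong to Atp5sl and overlap. Counted by gene, NRF1 was matched in 8 of 34 (23.5%, against 5.19% of 27025 genes), ETS in 4 (11.8%, against 4.31%), SP in 6 (17.6%, against 12.9%) and YY1 in 1 (2.94%, against 2.6%). The windows held a median of 19 CpG dinucleotides against 7, and the part of base composition in the motif shares was not tested. Stretches from the promoters of Uqcr11, Cox6a1 and Atp5h are shown because the first is the complex III gene lower in every knockout, the second is 1 of the 2 complex IV genes higher in every knockout (the other, Cox6b2, had no NRF1 or ETS match), and the third a gene with a log2 fold change of 0.04. Capitals mark the ETS match of Uqcr11, both NRF1 matches of Cox6a1 and the NRF1 match of Atp5h. They lie at chr10:80406835-80406932, chr5:115349021-115349165 and chr11:115420006-115420105, all on the minus strand.
Uqcr11: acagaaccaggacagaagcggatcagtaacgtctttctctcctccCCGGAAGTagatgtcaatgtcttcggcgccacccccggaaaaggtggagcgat
Cox6a1: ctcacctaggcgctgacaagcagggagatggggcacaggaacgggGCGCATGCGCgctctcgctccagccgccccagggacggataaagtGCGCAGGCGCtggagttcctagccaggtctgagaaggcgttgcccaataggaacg
Atp5h: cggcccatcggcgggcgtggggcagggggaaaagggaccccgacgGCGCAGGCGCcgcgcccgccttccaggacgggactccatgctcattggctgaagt
The 8 tested genes with an NRF1 match had 4 log2 fold changes above 0 and 4 below, with a median of -0.09 and a range from -1.07 to 0.64. A match of letters is a description of the window only.

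Other genes of the same machines were read from fixed lists. Of the regulators of mitochondrial gene expression, 12 of 12 were tested and 0 passed in edgeR or DESeq2, with 4 log2 fold changes above 0 and 8 below. Ppargc1a and Ppargc1b, coactivators of mitochondrial genes, were lowest at -1.81 (SE 2.07) and -1.64 (SE 0.971), and Esrra, a nuclear receptor that works with them, was highest at 1.76 (SE 1.09), followed by Tfb1m at 0.31 (SE 1.57). Nrf1, named after its values were seen because of the motif above, had 26.5, 22 and 36.7 CPM in controls and 14.1, 15.7 and 8.60 CPM in knockouts. Every knockout was lower, as for 7.74% of all genes, with a log2 fold change of -1.15 (SE 0.424, 95% interval -2.13 to -0.18, edgeR adjusted p = 0.729). A link between the level of Nrf1 and the genes with its motif was not tested.

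Among the tested assembly factors, 5 for complex III, 20 for complex IV and 3 for ATP synthase, DESeq2 made 1 call, where it called 1.01% of all genes. Uqcc1, which helps to build cytochrome b into complex III, had 9.19, 8.13 and 4.65 CPM in controls and 11.7, 37.8 and 45 CPM in knockouts. Every knockout was higher, with a log2 fold change of 2.11 (SE 0.591), past the threshold in DESeq2 (adjusted p = 0.0451) and not in edgeR (adjusted p = 0.663) or limma-voom (adjusted p = 0.660). Lyrm7, which delivers the Rieske protein, was at the other end with -2.09 (SE 1.52), then Bcs1l at -0.48 (SE 1.05), and Uqcc2 was at 0.31 (SE 0.848). The complex III list had 3 positive and 2 negative values over its 5 tested genes. For complex IV, 20 of 23 genes were tested, with 10 positive, 10 negative and 0 called by edgeR or DESeq2. Surf1 (1.94, SE 0.876) and Cox11 (1.43, SE 1.45), a copper-delivery factor, were highest, and Cox16 (-2.73, SE 1.43) and Sco1 (-1.31, SE 0.896), another copper chaperone, were lowest. The 3 factors of ATP synthase assembly had values of 1.03 (Atpaf2), 0.55 (Atpaf1) and -0.21 (Tmem70). Of 6 further subunits and carriers that the symbols miss, Cycs, cytochrome c itself, had 2.66, 5.62 and 2.61 CPM in controls and 1.74, 1.32 and 0.26 CPM in knockouts. All knockouts were lower, as for 7.74% of all genes (log2 fold change -1.71, SE 1.11, edgeR adjusted p = 0.848). How much of the Cycs sequence is shared with other genes was not measured, so its counts are uncertain. The next lowest was 2010107E04Rik at -0.34 (SE 0.406). At the other end were Usmg5 at 1.31 (SE 1.07), a small ATP synthase subunit that was high in knockout 3 alone, and Ndufa4 at 0.10 (SE 0.315).

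The earlier complexes of the chain are given for comparison. The 36 tested complex I subunits had 26 log2 fold changes above 0 and 10 below, with a median of 0.32, against 0.18 for the 37 genes here. Ndufa4 (0.10), now placed in complex IV, is counted both there and among the 6 further subunits. DESeq2 called 1 of the 36, Ndufa2 (1.59, SE 0.392, DESeq2 adjusted p = 0.0244), beside 1.01% of all genes, and edgeR (adjusted p = 0.622) and limma-voom (adjusted p = 0.660) called none. Next highest was Ndufb8 at 1.55 (SE 0.519), and lowest were Ndufb2 at -1.06 (SE 0.907) and Ndufs5 at -0.53 (SE 1.07). The 4 complex II genes had 3 above and 1 below, with a median of 0.35: Sdhb at 0.96, Sdhc at 0.61, Sdha at 0.09 and Sdhd at -1.11. No test of the difference between the complexes was made.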

How the data were processed

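Poly(A) RNA from 6 samples was sequenced, and the authors deposited raw whole-number counts per gene symbol, 1 list per sample. The submitters' processing notes name CASAVA 1.8.4, TopHat2, Picard 1.126, HTSeq 0.6.0, DESeq 3.0, bedtools 2.17.0 and build mm10. The annotation, strand setting and read length are not given in the sources used here, so reads of a gene and of an overlapping antisense gene may not be separated. The lists end in tallies of reads given to no gene, 41.0% to 51.0% of all reads, which were left out of library sizes. One of these tallies is for reads with more than 1 alignment. No molecular tags are described, so limits given for a count of 0 cover counting error only.

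Samples were grouped by the genotype label. Genes were kept by filterByExpr, libraries scaled by TMM, and genotypes compared with edgeR 4.0.16 (quasi-likelihood test, Benjamini-Hochberg over 13646 genes, threshold 0.05, R 4.3.3), without a litter term. DESeq2 1.42.0 and limma 3.58.1 (voom), other scalings, other filters, a litter block and leaving out each sample were alternatives. The procedure was tested on simulated data with a smaller spread between samples than here and with large changes put in. That test does not show how well it finds differences in these data. The common biological coefficient of variation was 0.817. Within-litter differences use log2 CPM with a prior count of 2. The litter in the labels pairs the samples; deviations of same-litter samples from their group means correlated at -0.02, -0.08 and 0.00 over genes. Gene positions and transcripts come from GENCODE M21 (GRCm38, the assembly of mm10).

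Members and lists were chosen with earlier results of these data known. Values per sample are given, in each complex, for the 3 tested members with the largest and the 3 with the smallest log2 fold change, those without overlap, the one with most counts, the tissue-restricted forms with their counterparts, and subunit c. From each pathway and comparison list the 2 highest and 2 lowest are named, plus any called; marker lists are given by their sums and calls.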

Additional observations from a re-analysis of the deposited data

How the results depend on the processing

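No gene of the 3 complexes was called under any setting run. Over all genes, edgeR called 0, DESeq2 138, and edgeR 1 without a filter on low counts and 1 with at least 10 counts in every sample. With the replicate block for litter, edgeR called 0 genes, and DESeq2 with the replicate block, chosen after seeing the data, called 277. The median of complex IV (0.24) was 0.11 with upper-quartile scaling, 0.40 with library size only, and 0.093 (13 genes pass the filter without knockout 3) to 0.40 when leaving out single samples. The median of ATP synthase was -0.16 to 0.33 when leaving out single samples, and that of complex III -0.25 to 0.08 and, with library size only, 0.17. The block gave ATP synthase a median of -0.04. Signs turned in 26 results of single genes, against 563 that did not turn, and the cause was not tested. With the replicate block in edgeR, Atp5h was at -0.041 and Atp5sl at -0.59, and in DESeq2 at -0.023 and -0.59. With limma-voom they were at -0.052 and -0.80, and Atp5h was at -0.11 with upper-quartile scaling. With library size only, Cox6b1 was at 0.065 and Atp5b at 0.065. The counts without knockout 2 or 3 and the medians over genes with under 10% shared windows were also chosen after seeing the data. The 7 genes without overlap kept their sign throughout. For left-out samples their selection all but fixed this beforehand, so it adds no support for them. At least 1 left-out sample turned the sign of Uqcr10, Uqcrb, Uqcrc1, Uqcrfs1, Cox6b1, Cox6c, Cox7a2, Cox7c, Cox8a, Atp5d, Atp5g1, Atp5h, Atp5l and Atp5sl, whose ranges follow in that order: -0.22 to 0.72, -0.21 to 0.45, -0.78 to 0.12, -0.0093 to 0.70, -0.21 to 0.19, -0.091 to 0.56, -0.85 to 0.11, -1.58 to 0.27, -0.064 to 0.42, -0.026 to 0.44, -0.16 to 0.78, -0.37 to 0.30, -1.01 to 0.23 and -2.26 to 2.18.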
